A study of Mus musculus and Homo sapiens with 10 samples.

Results

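In MDA-MB-231-Luc cells, 306 broad regions, each at least 4000 bp long, were called higher in trimethylation of histone H3 at lysine 4 (H3K4me3) after knockdown of CBX8. They were 11.7% of the 2611 regions called higher (95% interval 10.5 to 13.0%) and 30.0% of the base pairs in that list. They were chosen by the direction and length of the authors' calls, so both properties are given as a description and support nothing. Of all 3852 regions called changed in this line, 67.8% were called higher. How many regions the authors tested is not stated in the sources at hand. The 4 classes compared below are broad higher (306), shorter higher (2305), broad lower (750) and shorter lower (491), with 4000 bp dividing broad from shorter.

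The MDA-MB-231 line was derived from a human breast cancer. Both libraries compared came from MDA-MB-231-Luc cells carrying a pLKO.1 lentiviral hairpin, one against CBX8 (shCBX8) and one scrambled (shScr, whose genotype is labelled wild type). Mononucleosomes released by micrococcal nuclease were precipitated with an H3K4me3 antibody and sequenced, with puromycin selection named in the labels for the hairpin vectors. Each condition had 1 library from 1 line, so no difference has a replicate check. The labels do not say how many hairpins stand behind the shCBX8 library. The lists hold positions only, so neither the CBX8 level, nor read depth, nor how large a change was can be read from them, and markers of the cell type cannot be checked.

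H3K4me3 is laid down by SET1 and MLL family methyltransferase complexes, of which WDR5, named in the study's title, is a core subunit. The mark usually forms a narrow peak at the start of an active gene. At some genes it spreads into a broad domain reaching into the gene body, and such domains have been associated with genes of cell identity and with high, steady transcription. Here, broad refers to the length of a region called changed. The breadth of the whole H3K4me3 domain in either library cannot be read from the lists. CBX8 is a chromodomain subunit of Polycomb repressive complex 1, which acts with the H3K27me3 mark. The question of the comparison was which H3K4me3 regions differ when CBX8 is reduced.

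Broad higher regions had a median length of 5125 bp, with quartiles at 4500 and 6200 bp, and the mean was 5774.5 bp with an SD of 2053.8 bp over 306 regions. The length threshold cut through a continuous distribution. At the edge, 10 higher regions measured exactly 4000 bp, among them chr4:66958451-66962450, chr4:67428701-67432700 and chr6:27789951-27793950. Another 7 measured 3950 bp and fell outside, among them chr13:37392201-37396150, chr15:58762251-58766200 and chr19:56278901-56282850. Between 3500 and 4000 bp lay 130 higher regions, and from 4000 to under 4500 bp lay 75. All coordinates are hg19, counted from 1.

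The longest broad higher region spanned 20.1 kb at chr8:145008201-145028300. It had no other higher region within 1 Mb, the nearest being 1226400 bp away, while the nearest lower region was 103.8 kb away. The next longest, 16.4 kb at chr15:96867401-96883800, had its nearest lower region 2.09 Mb away. Regions of 13.0 kb (chr10:4802051-4815050), 12.9 kb (chr8:77314151-77327050), 12.8 kb (chr22:46460351-46473150) and 12.4 kb (chr1:234738001-234750400) followed. These leading regions differed in their surroundings: the nearest lower region lay 80.5 kb from the chromosome 10 region, 2099.9 kb from that on chromosome 8, 84.3 kb from that on chromosome 22 and 0.915 Mb from that on chromosome 1.

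The 7th to 13th in length ran from 12.15 to 10.0 kb. They lay at chr7:106407501-106419650, chr3:44034751-44046050, chr14:105484201-105494850, chr15:60681951-60692600, chr5:14261751-14272150, chr20:45979851-45990250 and chr11:114165251-114175250. The 14th to 20th ran from 9.90 to 9.40 kb. They lay at chr2:87751701-87761600, chr14:23444101-23454000, chr6:12286151-12295850, chr16:56639901-56649600, chr1:155944951-155954400, chr1:94787551-94796950 and chr4:41537001-41546400. A further region, chr13:36421251-36430650, tied with the last of these at 9.40 kb. The 20 longest were spread over 15 chromosomes, with 3 on chromosome 1 and 2 each on chromosomes 8, 14 and 15. The regions are given by position, since an annotation of hg19 was not used here and none was tied to a gene.

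**Figure D1:**
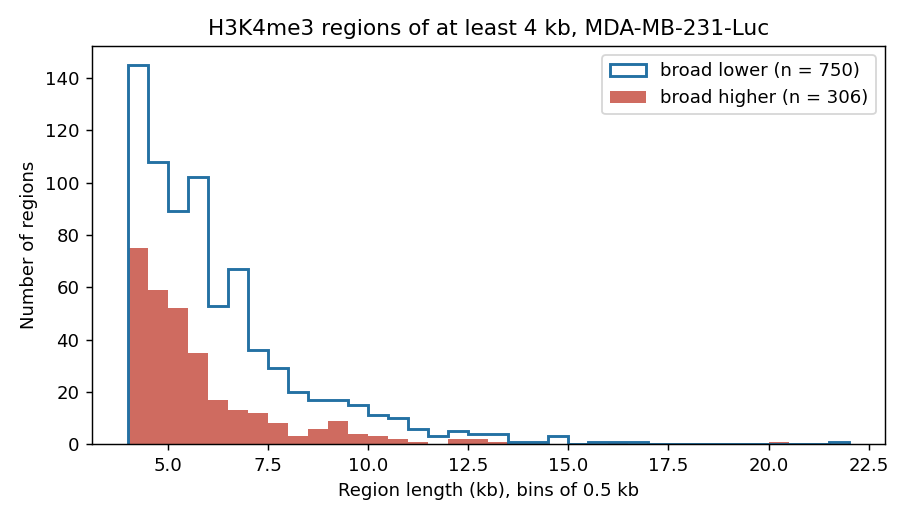
Number of H3K4me3 regions of at least 4 kb by length in bins of 0.5 kb, for the 306 broad higher regions (filled) and the 750 broad lower regions (outline). Both counts fall with length, and the lower regions outnumber the higher ones in nearly every bin.

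At this breadth, regions called lower were 2.45 times as many as those called higher. Broad higher regions were 29.0% of the 1056 broad changed regions (95% exact binomial interval 26.3 to 31.8%) and 27.4% of their base pairs, beside 67.8% of changed regions of any length. The higher share was 34.6% of the 387 regions from 4.0 to under 5.0 kb and 31.3% of the 278 from 5.0 to under 6.0 kb. It was 21.3% of the 235 regions from 6.0 to under 8.0 kb (16.2 to 27.1%) and 24.2% of the 91 from 8.0 to under 10.0 kb (15.8 to 34.3%). Of the 65 regions of 10.0 kb or more, 13 were higher, or 20.0% (11.1 to 31.8%). Of the broad higher regions, 134 (43.8%) were under 5.0 kb, beside 33.7% of the broad lower regions. Since length chose the members, these shares are a description. These and the other intervals take regions as independent units and cover counting error only, and close neighbours make them too narrow.

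Broad higher regions occurred on all 22 autosomes and on chromosome X. Chromosome 1 held 29, chromosomes 2 and 10 held 23 each, and chromosomes 7 and 8 held 22 each. At the low end, chromosome 21 held 3, and chromosomes 13 and 18 held 4 each. Their share of the higher regions of a chromosome ran from 6.45% of 62 on chromosome 13 to 18.2% of 77 on chromosome 14. In all 23 chromosomes the interval of that share held the overall 11.7%.

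The balance with broad lower regions was also read per chromosome. On chromosome 9 broad higher and broad lower regions were equal in number, 13 each, so that 50.0% of 26 were higher (29.9 to 70.1%). This was the one interval of 23 that did not hold the overall 29.0%, and the intervals are not adjusted for 23 chromosomes. The lowest shares were 15.4% of 39 on chromosome 19 (5.86 to 30.5%), 18.7% of 75 on chromosome 14 (10.6 to 29.3%) and 20.0% of 70 on chromosome 3 (11.4 to 31.3%). Chromosome 6 held 20 broad higher and 79 broad lower regions, the most broad lower regions of any chromosome. Of the 750 broad lower regions, 749 lay on these 23 chromosomes, and the last was a call on mitochondrial DNA, which carries no nucleosomes.

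**Figure D2:**
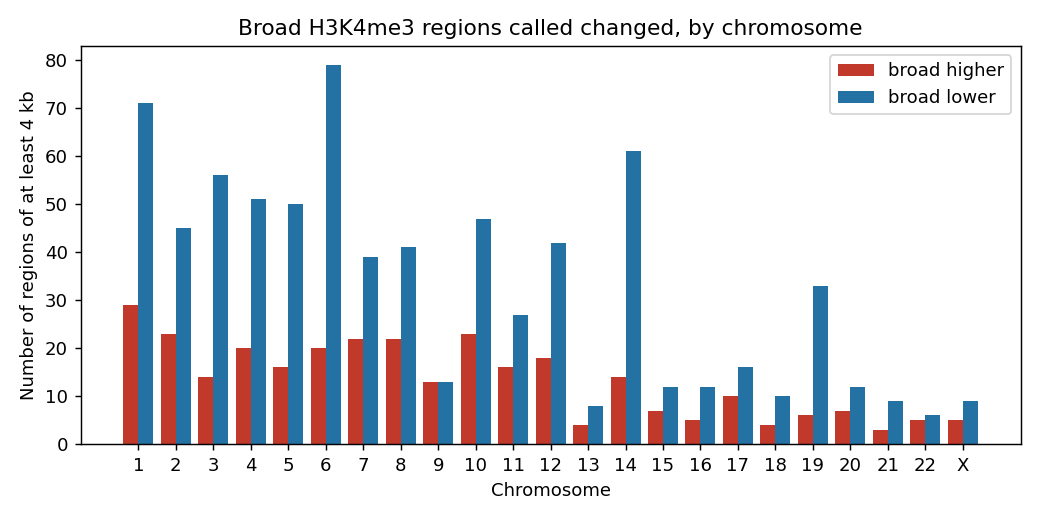
Number of broad higher (red) and broad lower (blue) H3K4me3 regions per chromosome, counting regions of at least 4 kb. Blue exceeds red on every chromosome shown except chromosome 9, where both stand at 13.

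The spacing of broad higher regions was measured first among themselves. The median distance from one to the nearest other broad higher region, edge to edge, was 2703.6 kb (interquartile range 888.9 to 6644.9 kb). From the other classes, the median distance to a broad higher region was 2909.6 kb from shorter higher, 2631.8 kb from broad lower and 2721.3 kb from shorter lower regions. Another lay within 100 kb of 19 of 306 (6.21%, 3.78 to 9.53%), and a broad higher region lay that near to 5.12% of shorter higher regions. The 19 count both regions of a pair and include all 5 of chromosome 6 from 27 to 28 Mb. Within 1000 kb, 83 (27.1%) had another. By windows of 1 Mb, 248 windows held a single broad higher region and 25 held 2. A pair of windows held more: chromosome 6 from 27 to 28 Mb held 5, and chromosome 14 from 105 to 106 Mb held 3. The chromosome 6 window also held 17 lower regions, 7 of them broad, and the chromosome 14 window 2 lower regions.

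Joining broad higher regions no more than 100 kb apart gave 9 groups with 19 regions, and 0 lower regions lay between the regions of any group. The gaps were short, from 5.75 to 84.2 kb, and lower regions were sparse, with 0.163 per broad higher region within 100 kb. The 0 was not tested against that density. The closest pair, 5.75 kb apart, was on chromosome 22, where chr22:46448151-46454600 (6.45 kb) stood beside the 12.8 kb region already described. A group of 3 on chromosome 6 spanned 34.8 kb from 27774101 to 27808850. Its regions of 8.95, 4.00 and 5.95 kb were separated by gaps of 6.90 and 8.95 kb, and the larger gap held 1 shorter higher region. Another chromosome 6 pair, 7.70 kb apart, was chr6:27097551-27102950 with chr6:27110651-27116650. The next closest pairs were on chromosome 1, at 149780551 to 149806600 with a gap of 15.3 kb and at 153505051 to 153539200 with a gap of 25.1 kb. The gap of 25.1 kb also held 1 shorter higher region. The remaining groups were single pairs on chromosomes 6, 11, 14 and 20.

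Among the 283 pairs of consecutive broad higher regions on a chromosome, the median gap was 5745.9 kb and the longest 99.4 Mb. Over these pairs, the median number of shorter higher regions in the gap was 4 and that of lower regions 2. In 77 pairs (27.2%) no lower region lay between, and in 29 no changed region at all. The same count was not made for other classes. The adjacent changed regions on both sides were higher for 51.2% of broad higher regions, beside 56.3% of shorter higher regions. The run of consecutive higher regions with most broad members covered 20.8 Mb of chromosome 1, from 214280751 to 235099750. It held 14 higher regions in a row, 5 of them broad. On chromosome 9, from 116225101 to 127024450, a run of 17 higher regions held 4 broad ones. On chromosome 10, from 1771701 to 3805750, 15 higher regions, 3 of them broad, stood in a row within 2.03 Mb. These runs were chosen after their values were seen.

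Measured to any other higher region, the spacing was much shorter. The median broad higher region had one at 186.8 kb (interquartile range 47.1 to 542.0 kb), beside 252.7 kb for shorter higher regions (76.3 to 639.9 kb). A higher neighbour within 100 kb was found for 104 of 306 (34.0%, 28.7 to 39.6%) and for 665 of 2305 shorter higher regions (28.9%). Within 20 kb the shares were 16.0% (12.1 to 20.6%) and 9.80% (8.62 to 11.1%). No test was made between these classes, since regions of 1 pair of libraries are not replicates.

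The closest neighbours were short. Of the broad higher regions, 18 (5.88%) had another higher region within 5 kb, 6 of them within 2 kb, and all 17 such neighbours were shorter than the threshold, from 1.1 to 3.8 kb. The smallest gap was 0.50 kb, between chr14:97877001-97881450 and a 1.4 kb region. The 12.4 kb region of chromosome 1 had a 2.35 kb neighbour at 1.15 kb. The 9.90 kb region of chromosome 2 had a 1.45 kb neighbour at 1.35 kb, and the 10.0 kb region of chromosome 11 had a 1.8 kb neighbour at 2100 bp. Whether such neighbours are separate changes or pieces of 1 domain split by the caller was not tested. Joining higher regions closer than 5000 bp raised the number of broad ones from 306 to 329.

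**Figure D3:**
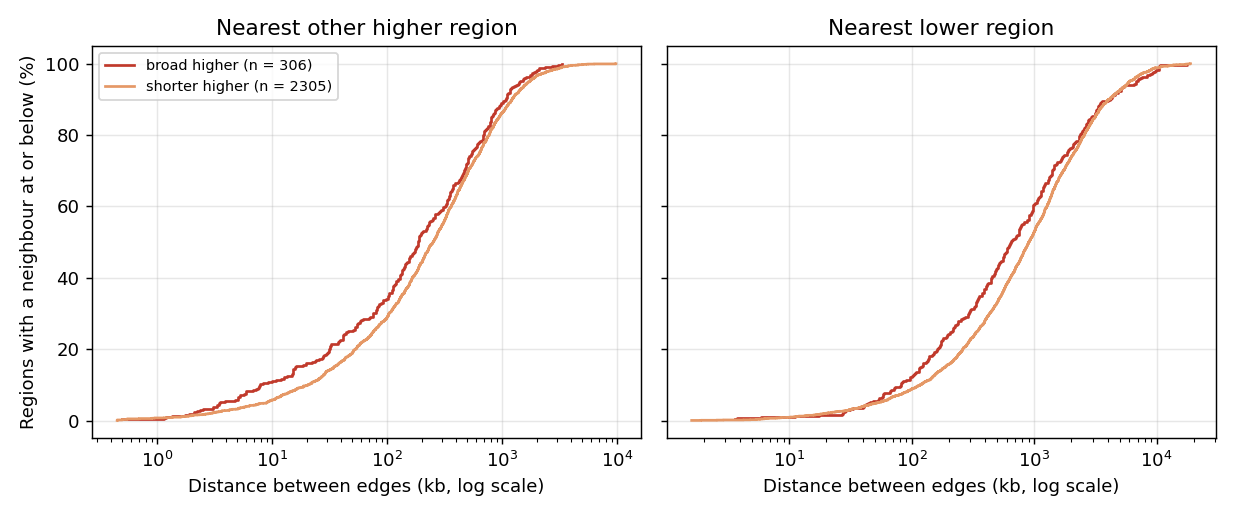
Cumulative percentage of regions whose nearest other higher region (left) or nearest lower region (right) lies at or below a given distance between edges, in kb on a log scale, for 306 broad higher and 2305 shorter higher regions. The broad curve lies to the left over most of the range, with medians of 186.8 against 252.7 kb on the left and 644.0 against 903.9 kb on the right.

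Of the 2611 higher regions, 0 overlapped a lower one. Both lists came from the same comparison, in which a stretch would not be called in both directions. The 0 is therefore given as a check of the lists and says nothing about separation. The median distance from a broad higher region to the nearest lower region was 644.0 kb (95% interval 530.2 to 869.4 kb, interquartile range 214.8 to 1843.9 kb). For shorter higher regions it was 903.9 kb (840.6 to 978.2 kb). A lower region lay within 100 kb of 38 broad higher regions (12.4%, 8.94 to 16.6%) and of 204 shorter ones (8.85%, 7.72 to 10.1%). Nearer, the shares were 1.63% and 2.08% within 20 kb, and 5.56% and 4.82% within 50 kb. At 200 kb the shares were 24.2% (19.5 to 29.4%) and 15.7% (14.3 to 17.3%). For 120 of 306 (39.2%) no lower region lay within 1 Mb. At that distance 60.8% of broad higher regions had one, beside 52.9% of shorter higher regions.

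These nearest lower regions had a median length of 4575 bp, beside 4400 bp for the whole lower list, and 190 of 306 (62.1%, 56.4 to 67.6%) were themselves broad, beside 60.4% of that list. They stood at higher coordinates than the broad higher region in 145 cases (47.4%, 41.7 to 53.1%). The 306 broad higher regions shared 238 distinct nearest lower regions. In 98 cases (32.0%) the lower region in turn had that broad higher region as its own nearest higher region. A lower region was closer than any other higher region for 75 broad higher regions (24.5%) and for 24.2% of shorter ones.

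The closest approach was on chromosome 1, where the 5.30 kb higher region chr1:144914851-144920150 ended 3.60 kb before a lower region of 10.0 kb, chr1:144923751-144933750. On chromosome 14, the 10.65 kb region chr14:105484201-105494850 ended 3.75 kb before the lower region chr14:105498601-105502600. On chromosome 11, chr11:122026651-122031250 (4.60 kb) ended 5.90 kb before chr11:122037151-122053100, a lower region of 15.95 kb. The chromosome 6 region chr6:27774101-27783050 stood 11.2 kb from a lower region of 6.2 kb, and the chromosome 10 region chr10:102130001-102136350 stood 17.6 kb from one of 7.15 kb. In each of these 5 cases the lower region was itself at least 4 kb long. Further out, and chosen after its values were seen, the 9.40 kb region chr1:94787551-94796950 lay 72.2 kb from the longest region of the lower list, 21.65 kb at chr1:94693751-94715400.

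At the other extreme, chrX:153624951-153629500 (4.55 kb) had no lower region nearer than 17.7 Mb. The next most distant were chr1:224803251-224808550 at 10.6 Mb, and chr16:86229501-86234500, chrX:15870451-15875250 and chr1:224617901-224623850 at 10.5 Mb each. Per chromosome, the median distance to the nearest lower region ran from 96.0 kb for the 5 regions of chromosome 22 to 4582.5 kb for the 5 of chromosome X. Among chromosomes with more than 10 broad higher regions, chromosome 14 was lowest at 155.3 kb, followed by chromosome 6 at 193.3 kb, and chromosome 9 was highest at 2167.2 kb. The number of lower regions also differed: chromosome 14 held 89, chromosome 9 held 24 and chromosome 22, with the shortest median, held 13. These counts are not scaled to chromosome length, and whether the distances depend on them was not tested.

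Neighbours at short range mostly had the same direction. Counting every changed region within 20 kb of a broad higher region, 60 were higher and 5 lower, or 92.3% higher (83.0 to 97.5%). Around shorter higher regions the share was 82.9% of 287 (78.1 to 87.1%), and around broad lower regions 41.4% of 99 (31.6 to 51.8%). Of the 60 higher neighbours of broad higher regions, 18 lay within 5 kb. Whether these are pieces of 1 domain split by the caller was not tested. The shares within 20 kb were not recomputed after joining close regions. From 20 to 100 kb, the higher share around broad higher regions was 65.1% of 129 (56.2 to 73.3%). From 100 to 1000 kb it was 59.3% of 1092 (56.4 to 62.3%), below the 67.8% of all changed regions and below the 72.3% around shorter higher regions. A changed region is counted for every region of the class it lies near, so a pair of neighbours within a class is counted from both sides. These counts are therefore not of distinct regions, unlike those behind the 67.8%, and the repeats make the intervals too narrow. Each broad higher region was also read with the changed region immediately before and after it, at any distance, again with repeats counted. Of these 609 neighbour positions, 71.3% were higher, beside 74.7% for shorter higher and 57.0% for broad lower regions.

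The low share at long range moved with 1 stretch. On chromosome 6 from 26 to 29 Mb lay 42 lower and 8 higher regions, and 5 of the 8 were broad. Without that stretch, the higher share from 100 to 1000 kb around the remaining 301 broad higher regions was 66.7% of 939 (63.5 to 69.7%), beside 73.0% around shorter higher regions. Lower regions within 1000 kb fell from 1.61 to 1.16 per broad higher region, beside 0.983 and 0.947 per shorter higher region. Within 20 kb the higher share was 92.5% of 53 without the stretch. All 5 broad higher regions of the stretch had a lower region within 41.0 kb.

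**Figure D4:**
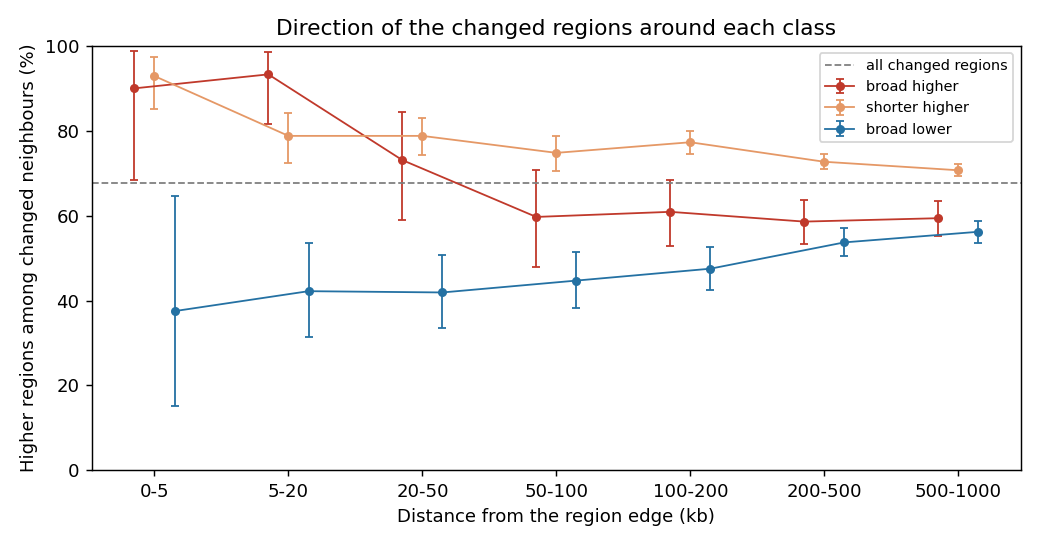
Percentage of higher regions among changed neighbours by distance from the region edge (kb), for broad higher, shorter higher and broad lower regions, with exact 95% intervals over neighbours. The dashed line is the 67.8% of all changed regions. Around broad higher regions the share is 93.3% at 5 to 20 kb and 59.4% at 500 to 1000 kb, with the chromosome 6 stretch included.

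At the scale of 100 kb, a changed region of either direction lay near 41.2% of broad higher regions (35.6 to 46.9%). The same held for 34.8% of shorter higher, 36.8% of broad lower and 36.5% of shorter lower regions. Neither a higher nor a lower region lay within that distance of 180 of 306 (58.8%). A higher region but no lower one was found for 88 (28.8%), a lower region but no higher one for 22 (7.19%), and both for 16 (5.23%). At 1 Mb, 16 (5.23%) had no other changed region. The 9th longest region, on chromosome 14, was one of the 16 with both, having a higher region 44.0 kb away and a lower one 3.75 kb away.

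The surroundings were also read by the length of the broad higher region, with a cut at 6000 bp chosen after seeing the data. Among the 85 regions of at least 6000 bp, 18 had a lower region within 100 kb (21.2%, 13.1 to 31.4%), beside 20 of 221 from 4000 to 5950 bp (9.05%, 5.62 to 13.6%). Among the 20 longest it was 6 (30.0%, 11.9 to 54.3%). The median distances were 594.0 kb for the 85 longer and 698.8 kb for the 221 shorter regions. A higher region lay within 100 kb of 32.9% and 34.4%. Across the 306 regions, Spearman's rho between length and distance was -0.128 for the nearest lower region and -0.0169 for the nearest higher region. These are weak relations over regions that share 1 pair of libraries, and no test was made.

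**Figure D5:**
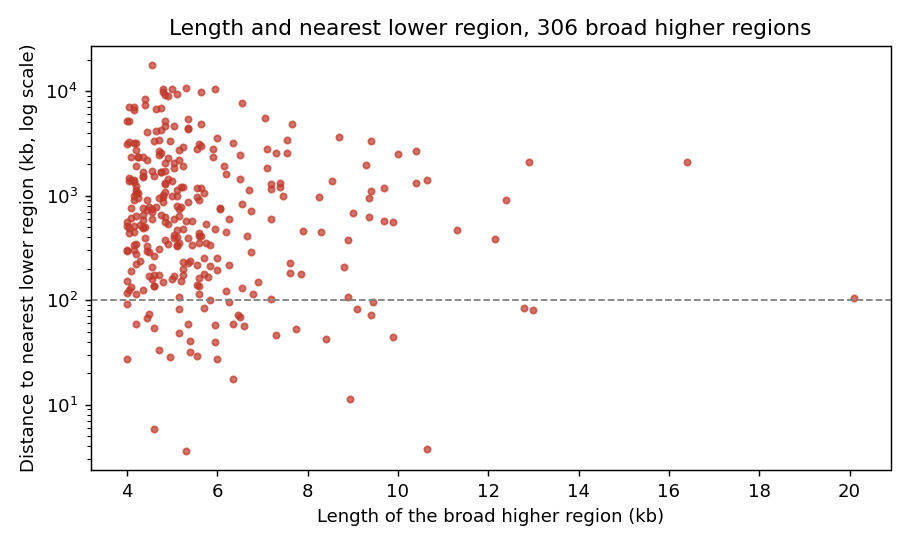
Length of each of the 306 broad higher regions (kb) against the distance to its nearest lower region (kb, log scale). The dashed line marks 100 kb, with 38 regions at or below it, and the 20.1 kb region lies just above it at 103.8 kb.

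In mouse MMTV-Myc cells, 0 of the 18 H3K4me3 regions called higher reached 4000 bp (exact interval up to 18.5%), with the longest at 3.75 kb. In the mouse lower list, 28 of 701 (3.99%) did, beside 60.4% of the human lower list. In their names, the lists carry different thresholds, a fold of 1.8 with a q-value of 1e-08 for mouse and only a q-value of 0.002 for human. Threshold, species and line cannot be told apart in this contrast.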

How the data were processed

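H3K4me3 was compared between 2 MDA-MB-231-Luc libraries, 1 per condition. The authors deposited lists of region positions, 1 for higher and 1 for lower, with no score, fold or read count, and the list names carry a q-value of 0.002. The tools named per the submitters' processing notes are SICER, MACS2 2.1.0, Bowtie 1.0.0 and FastQC 0.10.0, and the human build is hg19. The caller's gap and window settings, which can split or join regions, and any depth scaling are not stated. Depth is unknown.

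Starts and ends lay on a grid of 50 bp, with 0 exceptions. Length was end + 1 - start, and distances run between facing edges on 1 chromosome. Intervals are Clopper-Pearson for shares and binomial rank intervals for medians, at 95%. No test between conditions was possible. Named regions are the 20 longest, the 5 nearest to and 5 farthest from a lower region, the closest pairs, the windows of 1 Mb with more than 2 members and those at the length threshold. Others are named as values of chromosomes or runs. Members, rules and lists were chosen with earlier results of these data known. Gene starts, gene lists and base composition were planned but not run, since an hg19 genome and annotation were not used here. Alternatives were other minimum lengths, merging, autosomes only and other distances. On simulated data 306 of 306 planted distances were recovered, but no competing target lay near, so the choice among neighbours was not tried there. For the authors' lists, bedtools 2.31.1 gave the same nearest lower distance for 306 of 306. Scripts ran in Python 3.11.15 with pandas 2.3.3, scipy 1.17.1, numpy 2.4.6 and matplotlib 3.10.9.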

Additional observations from a re-analysis of the deposited data

How the results depend on the processing

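Of 34 alternative values over 8 results, 20 stayed within the interval of the reported value, or within 1.5 times a count. The minimum length set the number of broad higher regions, which was 592 at 3000 bp, 172 at 5000 bp and 85 at 6000 bp. At those minimum lengths they were 36.2%, 25.7% and 21.7% of broad changed regions. The median distance to the next broad higher region became 1313.7 kb at 3000 bp and 6080 kb at 5000 bp, because a shorter minimum keeps more regions. The median distance to the nearest lower region was 505.6 kb at a minimum of 5000 bp and 1085.7 kb when only lower regions of at least 4000 bp were counted. A lower region lay within 50000 bp of 5.56%, within 200000 bp of 24.2%, and within 100000 bp of 21.2% of regions of at least 6000 bp. Without chromosome 6 from 26 to 29 Mb, 68.4% of changed neighbours within 1 Mb were higher, beside 61.6% with it. The 6000 bp minimum, that omission and the merging before distances to the next higher region were chosen after seeing the data. Leaving out a replicate was not possible, with 1 library per condition. No paired analysis was possible because each condition had 1 library. The alternatives for gene starts and CpG content were not run. Unknown depth limits every list: a site missing from both is not shown to be unchanged.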
